A study of Mus musculus with 32 samples.

Results

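The genes described here are 40 components of the autophagy machinery, out of 53801 gene IDs listed in the deposited tables. Members were picked by gene name, with no measured value in the rule, and each name matched 1 gene ID. RNA was taken from cryosections of quadriceps muscle of wild type (WT) mice and of mice homozygous for the Col6a2tm1(KOMP)Vlcg allele (Col6a2-/-), which removes the α2 chain of collagen VI, which forms part of the matrix around muscle fibres. The allele was made on C57BL/6N, crossed for 5 generations to C57BL/6J, is present in every cell type, and both genotypes came from heterozygous parents. Each genotype was sampled at 5 and 25 weeks of age in females and males, which gave 8 groups of 4 mice, 1 library a mouse and 32 libraries in all. The labels state no treatment, and they do not say whether mice of 1 group shared a litter, so p-values measure the spread between these mice only.

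Autophagy encloses cell material in a membrane vesicle, the autophagosome, and delivers it to the lysosome for breakdown. The ULK1 kinase complex starts the process, a class III PI3-kinase complex marks the membrane, ATG9 and ATG2 proteins supply lipid, and an enzyme cascade attaches proteins of the ATG8 family (LC3 and GABARAP) to the growing membrane, where cargo receptors dock. Skeletal muscle depends on the pathway to clear damaged mitochondria and protein aggregates, and impaired autophagy has been reported in muscle that lacks collagen VI. The values below are mRNA levels, which do not measure the flow of material through the pathway.

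The targeted gene was checked first. Col6a2 lay between 19.9 and 51.2 TPM (length-normalised transcript abundance scaled to the same total in each library) in the 8 WT libraries at 5 weeks and between 0 and 0.171 TPM in the 8 Col6a2-/- libraries, and between 6.60 and 13.6 against 0.00785 and 0.0344 TPM at 25 weeks (two-sided exact permutation test, p = 0.000155 at each age, the smallest that 12870 splits can give). Mitochondrial genes held 31.9% to 46.9% of all TPM and the Rn7s genes, small RNAs of the signal recognition particle, 20.8% to 30.5%, so the scale of every other gene depends on a few abundant RNAs. The median tested gene was 0.14 higher (log2) in Col6a2-/- at 5 weeks and 0.08 higher at 25 weeks on the TPM scale, against 0.02 and 0.01 when libraries were scaled by median-of-ratios size factors. Summed TPM of 6 myofibre markers had a median of 27268 (22372 to 31096) in WT and 22273 (18395 to 30041) in Col6a2-/- at 5 weeks. Of the 6, Des went the other way, with medians of 367 and 414. Summed macrophage markers had a median of 40.5 (35.8 to 60.3) in WT and 115 (41.9 to 151) in Col6a2-/- at 5 weeks, and of 32.03 (20.3 to 48.9) and 55.1 (43.9 to 81.4) at 25 weeks. All 8 macrophage marker genes had a higher median in Col6a2-/- at 5 weeks, apart from a second gene ID listed as Itgam with a median of 0 in both genotypes, and their part in the results below was not tested. The other summed medians at 5 weeks, WT then Col6a2-/-, were 78.3 and 105 for endothelium, 557 and 603 for fibroblasts (Col1a1 192 and 171, Dcn 292 and 302, Lum 29.2 and 60.6, Dpt 37.7 and 59.9, Pdgfra 9.62 and 12.1, Pi16 6.60 and 6.94), 40.5 and 37.2 for adipocytes, 486 and 457 for erythrocytes, and 63.4 and 63.4 for tenocytes. Markers of regenerating fibres summed to 126 and 153, most of it Myh8 (117 and 102), while Myog had medians of 4.84 and 18.4, Myh3 of 1.48 and 12.9, Mymk of 0.744 and 5.06, Mymx of 0.102 and 14.2 and Myod1 of 2.062 and 4.59; their part in the results was not tested either. The Col6a2-/- 5-week females 2 and 4 had the lowest weights (0.154 and 0.326) in an alternative fit with library weights. The main fit used no weights, and results were also computed without both libraries.

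All 40 autophagy genes were expressed, with at least 0.869 TPM in every library, and all passed the filter on low values. Mean TPM over the 32 libraries ran from 1.65 to 77.7, with a median over the members of 6.64. Sqstm1, Map1lc3a, Gabarap, Lamp2 and Nbr1 were the most abundant and held 49.9% of the members' TPM, while 18 members had a mean under 5 TPM. The coefficient of variation within a group of 4 mice had a median over members of 12.9%, from 8.06% for Map1lc3b to 23.8% for Nbr1. Summed over the 40 genes, TPM had a median of 464 (436 to 530) in WT and 526 (483 to 686) in Col6a2-/- at 5 weeks, and of 485 (444 to 528) and 496 (455 to 560) at 25 weeks. The genotypes overlapped at both ages, and the highest sum belonged to Col6a2-/- 5-week female 2.

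The first comparison asked which autophagy genes differed between Col6a2-/- and WT muscle. At 5 weeks 6 of the 40 genes were higher in Col6a2-/- and 0 lower by limma at an adjusted p under 0.05: the ATG8 family genes Map1lc3a, Gabarapl1 and Gabarap, the conjugation enzyme Atg7, the lysosomal membrane gene Lamp2 and the transcription factor Tfe3. As the tables list them (GRCm38), Map1lc3a lies at chr2:155276297-155278073, Gabarapl1 at chr6:129533160-129542346, Gabarap at chr11:69991143-69994951, Atg7 at chr6:114643097-114860614, Lamp2 at chrX:38401357-38456454 and Tfe3 at chrX:7762560-7775202. The 6 calls made 15.0% of the members, against 25.4% of all 12817 genes tested (23.2% higher and 2.14% lower). The difference in share was not tested. At 25 weeks Lamp2 was the 1 gene of 40 that passed, against 4.7% of all genes (4.47% higher and 0.234% lower). The ranges of the 8 libraries of each genotype were separate for 2 members at 5 weeks (1.3% of all genes) and for 0 at 25 weeks (0.694%). The members' median difference was 0.14 at 5 weeks and 0.06 at 25 weeks, beside 0.14 and 0.08 for all tested genes, and 15 members (37.5%, against 38.7% of all genes) at 5 weeks and 4 (10.0% against 19.3%) at 25 weeks had an unadjusted p under 0.05. Taken per library at 5 weeks, the members' median against the WT mean was 0.43 in Col6a2-/- female 2, 0.30 in male 1 and 0.24 in male 3, and lay between -0.02 and 0.12 in the other five. The direction depended on scaling: with median-of-ratios size factors, 3 members were higher (Gabarapl1, Lamp2 and Map1lc3a) and 3 lower (Atg9a, Tfeb and Ulk2) at 5 weeks, and among all genes 1798 were higher and 1215 lower in place of 2979 and 274. The count at 5 weeks was 12 (30.0%, against 37.1% of all genes in the same fit) without Col6a2-/- 5-week female 4 and 10 (25.0% against 31.7%) without Col6a2-/- 5-week male 4. It was 7 higher and 1 lower (Ulk2) without females 2 and 4 (20.0% against 25.2%). In whole muscle, fewer cells of a type and less RNA per cell cannot be told apart.

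**Figure D1:**
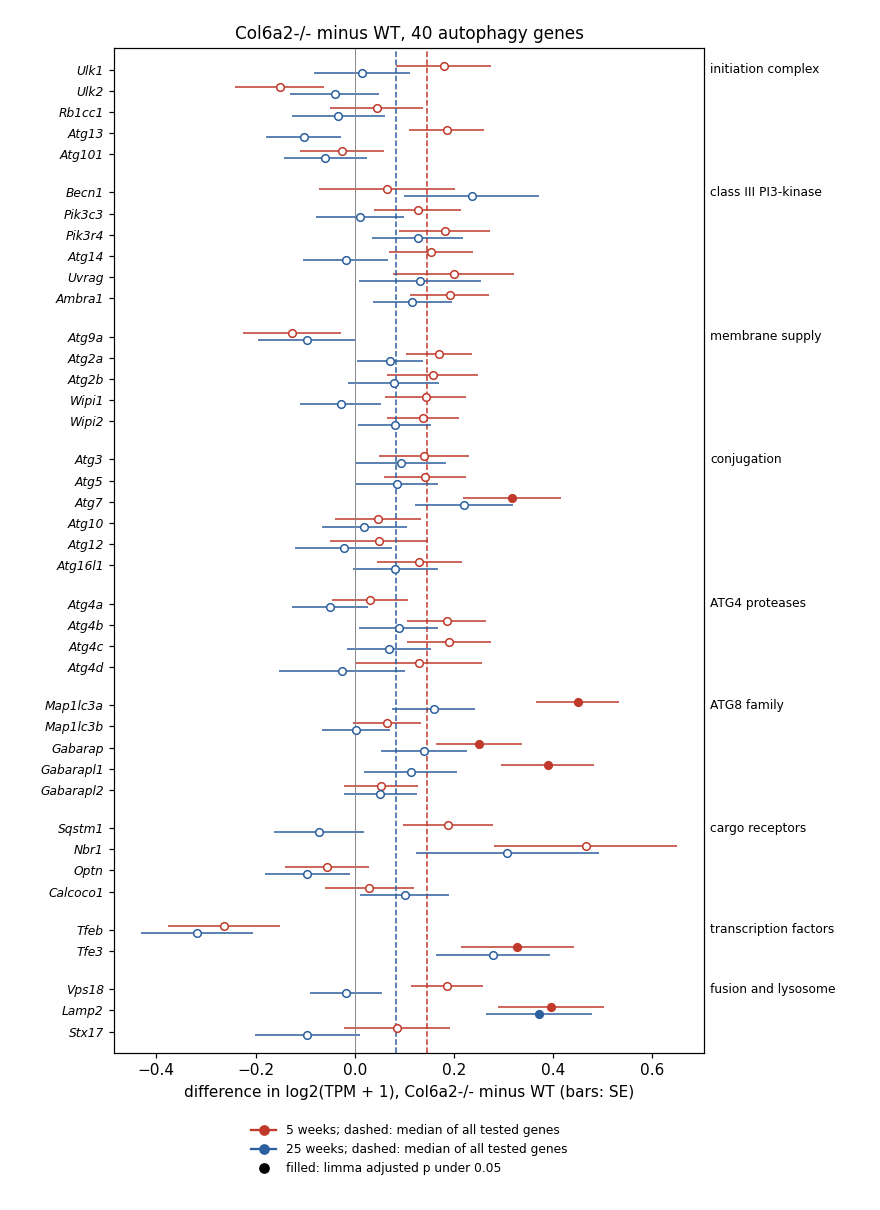
Difference in log2(TPM + 1) between Col6a2-/- and WT for the 40 autophagy genes by role, at 5 weeks (red) and 25 weeks (blue), with SE bars; filled points had a limma adjusted p under 0.05 and dashed lines mark the median of all tested genes. Most open points lie near the dashed lines, the 6 filled red points lie to their right, and Tfeb lies furthest to the left at both ages.

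TFEB and TFE3 are related transcription factors that switch on genes of lysosomes and autophagy when nutrients are short. Tfe3 was called higher at 5 weeks, and Tfeb was called at neither age on the TPM scale. Tfe3 was the scarcer mRNA, at 1.28 to 2.55 TPM (median 1.59) in WT and 1.37 to 3.36 (median 2.43) in Col6a2-/- at 5 weeks. The genotypes overlapped, and the difference was 0.33 (log2, SE 0.11; limma adjusted p = 0.0354; 7 of 8 libraries above the mean of WT mice of their sex). At 25 weeks it was 0.28 (adjusted p = 0.168 by limma). The Tfe3 call was lost when any 1 of 7 libraries was left out (WT females 4, WT males 2 and 3, Col6a2-/- females 2 and 3, Col6a2-/- males 1 and 2; adjusted p = 0.0557 to 0.108) and under 3 of 5 scalings (0.13 under quantile normalization, adjusted p = 0.278).

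Tfeb, the more abundant of the pair, ran from 7.26 to 9.57 TPM (median 8.20) in WT and from 4.57 to 9.57 (median 6.93) in Col6a2-/- at 5 weeks, and from 8.13 to 12.0 (median 9.75) and 4.60 to 11.1 (median 8.14) at 25 weeks. At each age 7 of 8 Col6a2-/- libraries lay below the WT mean of their sex, but the ranges overlapped. The difference was -0.26 (SE 0.11, adjusted p = 0.0839) at 5 weeks and -0.32 (SE 0.11, adjusted p = 0.105) at 25 weeks by limma, which missed the threshold. Set against the median of all genes, these differences were -0.41 and -0.40. Under the 4 scalings that reduce the weight of abundant RNAs, Tfeb passed as lower at both ages, at -0.27 to -0.43 with limma adjusted p = 0.0051 to 0.0396 at 5 weeks and -0.38 to -0.40 with adjusted p = 0.0191 to 0.0291 at 25 weeks.

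Both factors bind the E-box letters CACGTG, so the bases before the members' starts were searched for them on both strands. RefSeq promoters (build GRCm38.p6) were matched for 34 of the 40 members, all but Atg12, Atg16l1, Becn1, Map1lc3a, Pik3c3 and Rb1cc1. In the 250 bases before the start, CACGTG occurred in 3 of these (Atg3, Atg5 and Atg7), 8.82%, against 6.86% of 27025 genes; the Atg7 entry starts 27999 bases inside the gene as the tables list it. The longer TCACGTG, which holds the first motif, occurred in 2 members (5.88% against 3.58%), and GTAAACA, bound by FoxO factors, in 0 of 34 (3.54% of genes). Atg3, which encodes the enzyme that transfers ATG8 proteins to lipid, is shown because its window held the E-box 2 times (capitals mark the motif and the T before or A after it), and Lamp2 because it was the gene called at both ages and its window held none. The stretches shown lie outside annotated exons, at chr16:45158707-45158784 on the plus strand and chrX:38456461-38456610 on the minus strand.
Atg3: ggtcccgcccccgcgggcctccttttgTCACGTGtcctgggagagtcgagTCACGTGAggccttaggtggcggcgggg
Lamp2: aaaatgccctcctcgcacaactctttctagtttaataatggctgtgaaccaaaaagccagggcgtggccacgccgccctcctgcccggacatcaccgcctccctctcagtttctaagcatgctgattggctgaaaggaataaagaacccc
Atg3, with its E-boxes, had 4.44 to 6.98 TPM in WT and 4.97 to 8.41 in Col6a2-/- at 5 weeks and was not called. A match of letters is a description and shows no binding.

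None of the 5 genes of the initiation complex (Ulk1, Ulk2, Rb1cc1, Atg13 and Atg101) was called for genotype at either age, and their differences at 5 weeks ran from -0.15 to 0.18. Rb1cc1, the scaffold of the complex and its most abundant member, had 18.5 to 22.2 TPM (median 21.0) in WT and 16.6 to 26.4 (median 21.8) in Col6a2-/- at 5 weeks. The Col6a2-/- libraries spread wider than WT at both ends. Ulk2, a kinase of the complex named here after its values were seen, had a difference of -0.15 (limma adjusted p = 0.211) at 5 weeks on the TPM scale and passed as lower at -0.30 (adjusted p = 8.4e-05) with median-of-ratios size factors.

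The 6 genes of the class III PI3-kinase complex (Becn1, Pik3c3, Pik3r4, Atg14, Uvrag and Ambra1) had differences of 0.06 to 0.20 at 5 weeks and -0.02 to 0.24 at 25 weeks, with 0 called. Becn1, which encodes the Beclin 1 subunit that other proteins bind to control the complex, ran from 7.26 to 12.2 TPM (median 10.7) in WT and from 6.50 to 15.0 (median 10.9) in Col6a2-/- at 5 weeks. The Col6a2-/- range held the entire WT range.

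The 5 genes of membrane supply (Atg9a, Atg2a, Atg2b, Wipi1 and Wipi2) had 0 calls on the TPM scale. Atg9a encodes the scramblase carried by the vesicles that seed the autophagosome. It had 12.2 to 17.6 TPM (median 16.2) in WT and 11.3 to 17.1 (median 14.0) in Col6a2-/- at 5 weeks, a difference of -0.13 that limma did not call, and it passed as lower at -0.27 (adjusted p = 0.0244) with median-of-ratios size factors. Its 5′ end overlaps Ankzf1 on the other strand (2.81 TPM), and reads from the 2 genes may not be separable.

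Among the 6 conjugation genes (Atg3, Atg5, Atg7, Atg10, Atg12 and Atg16l1), Atg7 was called and the other five were not. Atg7 encodes the E1-like enzyme that activates ATG8 proteins and ATG12. At 5 weeks it had 1.49 to 2.02 TPM (median 1.83) in WT and 2.05 to 2.87 (median 2.51) in Col6a2-/-, so that every Col6a2-/- library lay above every WT library, as for 1.3% of all tested genes. The difference was 0.32 (SE 0.10, limma adjusted p = 0.0194), 0.17 above the median of all genes. It stayed under the threshold whichever single library was left out, but not with median-of-ratios, quantile or top-gene-free scaling (0.13 under quantile normalization, adjusted p = 0.342). At 25 weeks Atg7 ran from 1.24 to 3.38 TPM in WT and 1.59 to 3.33 in Col6a2-/-, which overlapped, with a difference of 0.22 (limma adjusted p = 0.211). Atg12, the ubiquitin-like protein joined to ATG5 and the most abundant of the group, had 6.92 to 9.64 TPM (median 7.91) in WT and 6.15 to 12.4 (median 7.61) in Col6a2-/- at 5 weeks and was not called.

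The 4 ATG4 proteases, which trim ATG8 proteins before conjugation and free them afterwards, had differences of 0.03 to 0.19 at 5 weeks and -0.05 to 0.09 at 25 weeks. None was called for genotype at either age. Atg4b had 3.84 to 5.94 TPM (median 4.29) in WT and 4.27 to 6.58 (median 5.14) in Col6a2-/- at 5 weeks (difference 0.18, limma adjusted p = 0.0826). It overlaps the more abundant Thap4 (14.2 TPM) on the other strand, so its level is uncertain.

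In the ATG8 family 3 of 5 genes were called at 5 weeks, beside 25.4% of all genes, and 2 of the 3, Map1lc3a and Gabarapl1, were called under every alternative run. Map1lc3a, which encodes LC3A and was the most abundant of them, had 59.99 to 82.7 TPM (median 71.3) in WT and 86.4 to 111 (median 97.6) in Col6a2-/- at 5 weeks. The genotypes did not overlap, and the difference was 0.45 (log2, SE 0.08; limma adjusted p = 0.000258; 8 of 8 libraries), 0.30 above the median of all genes. It remained called under all 45 alternatives, at 0.29 to 0.48 with limma adjusted p = 4.7e-05 to 0.0042. At 25 weeks the ranges were 39.8 to 67.8 TPM (median 58.9) in WT and 54.3 to 69.7 (median 64.0) in Col6a2-/-, which overlapped, and the difference was 0.16 (limma adjusted p = 0.297).

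Within the males at 5 weeks, WT libraries had 68.7, 64.8, 59.99 and 73.4 TPM of Map1lc3a and Col6a2-/- libraries 109, 97.3, 111 and 86.4. The 2 male groups were separate, and Map1lc3a was the only member called in that sex (0.59, SE 0.12, limma adjusted p = 0.002), where 5.03% of all genes were. In females WT libraries had 69.1, 82.7, 76.6 and 82.3 TPM and Col6a2-/- libraries 100.0, 96.5, 97.9 and 91.6. These were also separate, with a difference of 0.31 (limma adjusted p = 0.077). At 5 weeks, 3 of the 40 members had separate ranges in males and 4 in females. The share of all genes with separate ranges of 4 against 4 libraries was not computed, so this separation is a description only. The difference between the sexes was not significant for any member by limma (0 of 40 called, against 0.0156% of all genes, and 0 with an unadjusted p under 0.05, against 1.61%).

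**Figure D2:**
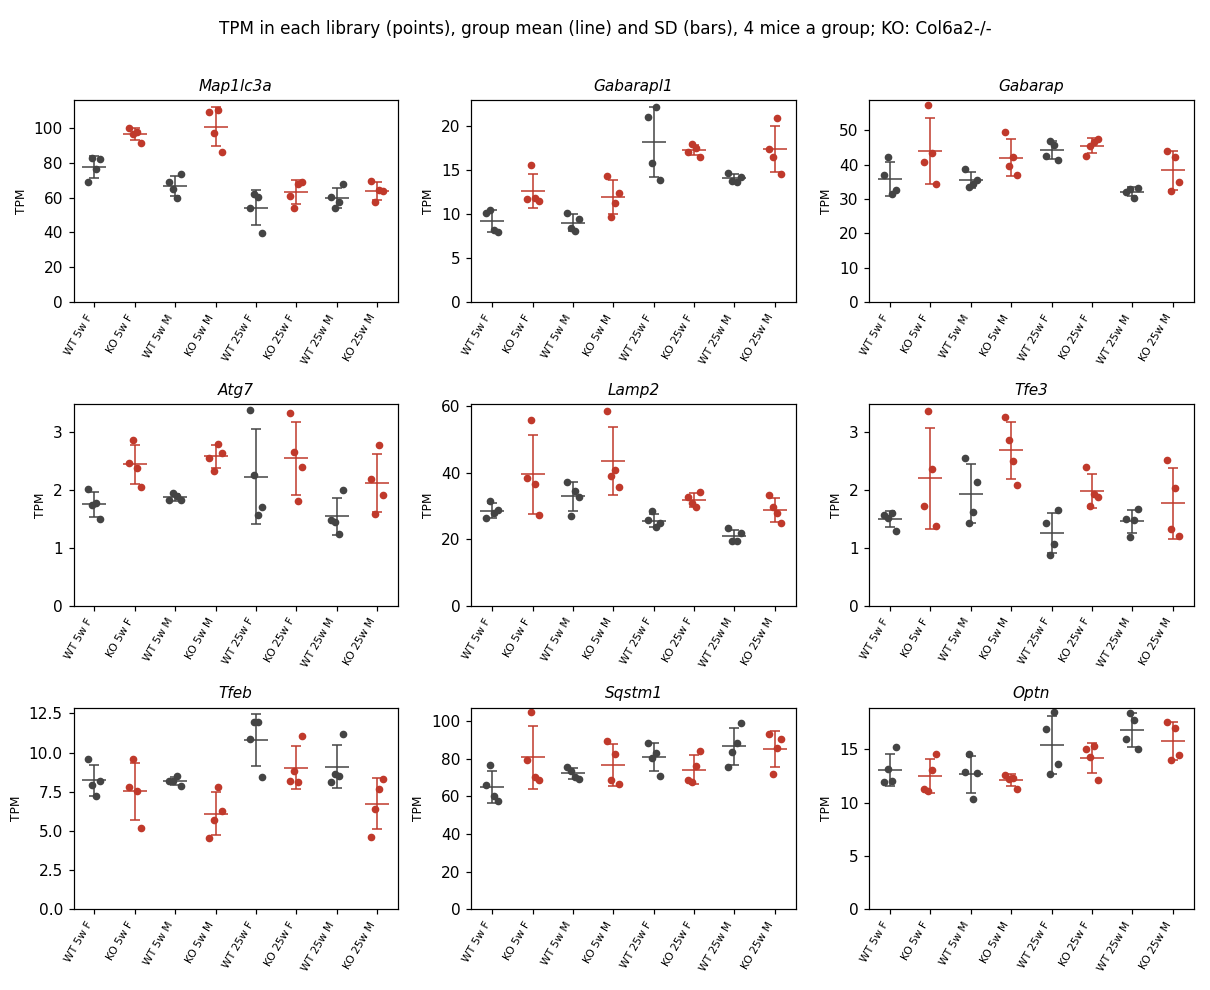
TPM of 9 autophagy genes in each of the 32 libraries (points), with group means (lines) and SD (bars) for 4 mice a group, WT in grey and Col6a2-/- in red. Map1lc3a lies between 86.4 and 111 TPM in the 5-week Col6a2-/- groups, above all other groups.

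Gabarapl1, which encodes a GABARAP-like protein that also acts in transport, had 7.97 to 10.5 TPM (median 8.92) in WT and 9.66 to 15.5 (median 11.7) in Col6a2-/- at 5 weeks. The ranges overlapped slightly, and all 8 Col6a2-/- libraries lay above the WT mean of their sex (0.39, SE 0.09, limma adjusted p = 0.00363). It was called under all 45 alternatives, at 0.24 to 0.43 with adjusted p = 0.0019 to 0.0368 by limma. In females at 5 weeks, WT libraries had 10.1, 10.5, 8.16 and 7.97 TPM and Col6a2-/- libraries 11.6, 15.5, 11.8 and 11.5. They did not overlap, as for 4 of the 40 members in these groups. Gabarapl1 was the only member called in that sex (0.42, SE 0.13, limma adjusted p = 0.0373), against 12.9% of all genes. This call within females was lost without any 1 of WT females 1, 3 and 4 or Col6a2-/- females 1 and 2 (0.32 without female 2, limma adjusted p = 0.194) and under 4 of 5 other scalings. The count of members called in 5-week females was 9 without Col6a2-/- female 4 (22.5%, against 30.2% of all genes in the same fit), and 2 (5.0%) without WT 25-week female 4 or without Col6a2-/- 5-week male 1 (1584 of 12812 and 1652 of 12694 genes in all). At 25 weeks the difference over both sexes was 0.11 (limma adjusted p = 0.551).

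Gabarap itself ran from 31.4 to 42.2 TPM (median 35.0) in WT and from 34.2 to 57.3 (median 41.4) in Col6a2-/- at 5 weeks. The groups overlapped, with 7 of 8 Col6a2-/- libraries above the WT mean of their sex (0.25, SE 0.09, limma adjusted p = 0.0354). The call was lost without any 1 of 8 libraries (WT females 3 and 4, WT males 2, 3 and 4, Col6a2-/- female 2, Col6a2-/- males 1 and 3; limma adjusted p = 0.0542 to 0.103), and with median-of-ratios size factors the difference was 0.09 (limma adjusted p = 0.158). Map1lc3b (LC3B) and Gabarapl2 had 13.3 to 19.2 and 15.7 to 20.5 TPM in WT and 14.6 to 18.9 and 15.6 to 21.9 in Col6a2-/- at 5 weeks. Neither was called at either age.

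**Figure D3:**
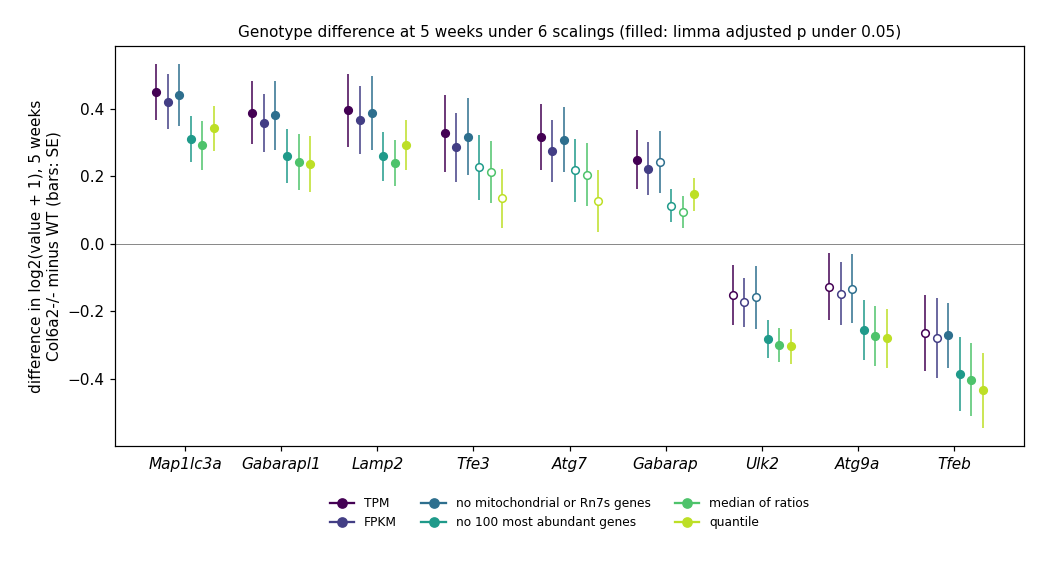
Difference between Col6a2-/- and WT at 5 weeks, as log2(value + 1), for 9 autophagy genes under 6 scalings of the same tables, with SE bars and filled points for a limma adjusted p under 0.05. Map1lc3a, Gabarapl1 and Lamp2 are filled under all 6, Gabarap, Atg7 and Tfe3 under 3 each. Tfeb is filled below 0 under 4, and Atg9a and Ulk2 under the median-of-ratios, top-100-free and quantile scalings.

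Of the 4 cargo receptors, which tie ubiquitin-marked or other cargo to ATG8 proteins, 0 were called for genotype. Sqstm1 encodes p62, a receptor that builds up as a protein when autophagy is blocked, and had the highest mean over the 32 libraries. It had 57.5 to 76.6 TPM (median 69.9) in WT and 66.4 to 105 (median 74.9) in Col6a2-/- at 5 weeks, and 71.0 to 99.1 (median 83.5) and 67.7 to 93.1 (median 80.4) at 25 weeks. The genotypes overlapped at both ages, and the limma differences were 0.19 (adjusted p = 0.125) and -0.07 (adjusted p = 0.71). Optn, which encodes optineurin, ran from 10.4 to 15.2 TPM (median 12.8) in WT and from 11.1 to 14.5 (median 12.3) in Col6a2-/- at 5 weeks. Nbr1, named here after its values were seen, had the largest difference of any member at 5 weeks, 0.47 (SE 0.18), but varied most between mice and was not called (limma adjusted p = 0.0619).

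The 3 genes of fusion and the lysosome were Vps18, Stx17 and Lamp2, and Lamp2 was called at both ages. LAMP2 is a membrane protein of lysosomes that is needed for their fusion with autophagosomes, and its loss causes the muscle disorder Danon disease. At 5 weeks it had 26.2 to 37.1 TPM (median 30.1) in WT and 27.2 to 58.6 (median 38.6) in Col6a2-/-. These ranges overlapped, with 7 of 8 Col6a2-/- libraries above the WT mean of their sex (0.40, SE 0.11, limma adjusted p = 0.00825). Lamp2 stayed called without any single library and under all 5 other scalings (0.24 to 0.39), but not when only the 5-week groups were fitted (limma adjusted p = 0.0521).

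At 25 weeks WT females had 25.7, 28.3, 23.5 and 24.9 TPM of Lamp2 and Col6a2-/- females 32.6, 30.9, 29.6 and 34.2, while WT males had 23.3, 19.4, 19.5 and 21.7 and Col6a2-/- males 33.3, 29.7, 27.7 and 24.7. Within each sex the genotypes did not overlap, and across the sexes they overlapped. At 25 weeks 2 of the 40 members had separate ranges in females and 3 in males. The share of all genes with separate ranges of 4 against 4 libraries was not computed. For Lamp2 the difference was 0.37 (SE 0.11, limma adjusted p = 0.0431, 8 of 8 libraries above). It lay close to the threshold: the adjusted p was 0.0504 to 0.113 without any 1 of 13 libraries (WT 5-week female 4, WT 25-week females 1, 3 and 4, WT 25-week males 2 and 3, Col6a2-/- 5-week female 1, Col6a2-/- 25-week females 1, 2 and 4, and Col6a2-/- 25-week males 1, 2 and 3) and 0.139 after rescaling without mitochondrial and Rn7s genes. Macrophages are rich in lysosomes, and their summed markers were also higher in Col6a2-/- at both ages; their part in the Lamp2 difference was not tested. Within single sexes at 25 weeks, limma called 0 of 40 members in females, against 0.0078% of all genes, and 0 in males, against 3.03%. At an unadjusted p under 0.05 these counts were 1 in females (2.5%, against 4.85% of all genes) and 5 in males (12.5% against 19.8%). Without Col6a2-/- 5-week female 2 the count called in males was 1 (2.5% against 6.43%).

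Whether the genotype difference changed between 5 and 25 weeks was tested directly. None of the 40 members was called for genotype by age by limma, against 0.492% of all genes, and 3 (Map1lc3a, Gabarapl1 and Atg13) had an unadjusted p under 0.05, 7.5% against 7.01% of all genes. The difference of Map1lc3a was 0.29 smaller at 25 weeks (SE 0.12, limma adjusted p = 0.527) and that of Gabarapl1 0.28 smaller (SE 0.13, adjusted p = 0.698). Calls present at 5 weeks and missing at 25 weeks are therefore not shown to differ between the ages.

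The ages were compared within each genotype. The share of members called on the TPM scale was 17.5% against 19.8% of all genes in WT and 12.5% against 34.2% in Col6a2-/-. With median-of-ratios size factors it was 32.5% against 28.0% in WT and 25.0% against 34.8% in Col6a2-/-. The differences in share were not tested. Cell type markers also moved with age: from 5 to 25 weeks the summed medians went from 27268 to 20352 TPM for myofibres and from 557 to 332 for fibroblasts in WT (Col1a1 from 192 to 12.7), and from 22273 to 17268 and from 603 to 385 in Col6a2-/-, where macrophage markers went from 115 to 55.1, Myog from 18.4 to 2.10 and Mymx from 14.2 to 0.26. Endothelial markers went from 78.3 to 68.2 in WT and from 105 to 77.9 in Col6a2-/-, and tenocyte markers from 63.4 to 35.1 and from 63.4 to 36.2. Adipocyte markers went up, from 40.5 to 59.8 in WT and from 37.2 to 78.3 in Col6a2-/-, as did the myofibre marker Des, from 367 to 449 and from 414 to 461. Erythrocyte markers went from 486 to 553 and from 457 to 605. Median coverage per FPKM, a relative measure of depth, went from 11.1 to 7.58 in WT and from 8.95 to 8.44 in Col6a2-/-. The part of these shifts in the age results was not tested. In WT, 5 of 40 were higher at 25 than at 5 weeks (Gabarapl1, Optn, Sqstm1, Atg13 and Atg4a) and 2 lower (Lamp2 and Map1lc3a), 17.5% against 19.8% of all genes (4.47% higher, 15.3% lower). In Col6a2-/-, 2 were higher (Gabarapl1 and Optn) and 3 lower (Map1lc3a, Lamp2 and Atg4b), 12.5% against 34.2% (5.41% higher, 28.8% lower). At an unadjusted p under 0.05 the shares were 22.5% of members against 31.9% of all genes in WT and 17.5% against 44.1% in Col6a2-/-. The members' median was 0.01 in WT and -0.06 in Col6a2-/-, beside -0.08 and -0.14 for all tested genes. With median-of-ratios size factors 11 members were higher and 2 lower in WT (all genes 11.2% higher and 16.8% lower), and 8 higher and 2 lower in Col6a2-/- (all genes 14.1% higher and 20.7% lower). In Col6a2-/- the count was 2 higher and 6 lower without 5-week female 4 (20.0% against 43.0% of all genes).

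Gabarapl1 had the largest rise. It went from 7.97 to 10.5 TPM at 5 weeks to 13.6 to 22.1 (median 14.4) at 25 weeks in WT, and from 9.66 to 15.5 to 14.6 to 20.9 (median 17.2) in Col6a2-/-. The ages were separate in WT, as for 3.0% of all genes, and overlapped slightly in Col6a2-/-. The differences were 0.75 (SE 0.09, limma adjusted p = 1.3e-06) and 0.47 (SE 0.09, adjusted p = 0.000342). Map1lc3a fell by 0.34 in WT (SE 0.08, limma adjusted p = 0.00429) and by 0.63 in Col6a2-/- (SE 0.08, adjusted p = 1.3e-06). In Col6a2-/- every 25-week library lay below every 5-week library, as for 2.68% of all genes, while the WT ages overlapped. The WT fall missed the threshold after rescaling without mitochondrial and Rn7s genes (-0.20, adjusted p = 0.126 by limma).

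Lamp2 fell by 0.38 in WT (limma adjusted p = 0.0114) and by 0.41 in Col6a2-/- (adjusted p = 0.00429), with all 8 older libraries of each genotype below the younger mean of their sex. The WT value was -0.25 after rescaling without mitochondrial and Rn7s genes (limma adjusted p = 0.117). Optn rose by 0.30 in WT (limma adjusted p = 0.0117) and 0.26 in Col6a2-/- (adjusted p = 0.0178), to 12.7 to 18.5 TPM and 12.1 to 17.6 TPM at 25 weeks. Sqstm1 rose by 0.28 in WT (limma adjusted p = 0.026), with 8 of 8 older libraries above the younger mean, and had 0.02 in Col6a2-/-, where it passed as higher with median-of-ratios size factors (0.17, limma adjusted p = 0.0178) and without the 100 most abundant genes (0.16, adjusted p = 0.0286). That Sqstm1 call was lost without any 1 of WT 5-week females 3 and 4, WT 25-week female 1 and WT 25-week male 4 (limma adjusted p = 0.0526 to 0.0628). Atg13, named here after its values were seen (0.25, limma adjusted p = 0.0189), was lost without WT 25-week male 3 (adjusted p = 0.0582), and Atg4a (0.24, adjusted p = 0.0249) without any 1 of WT 5-week female 3, WT 25-week female 2 and WT 25-week male 1 (0.0513 to 0.0539). In Col6a2-/- Atg4a was not called in the main fit. It passed as higher there with median-of-ratios, top-100-free, quantile and FPKM scaling (0.20 to 0.31, limma adjusted p = 1.0e-05 to 0.0249). Rescaling without mitochondrial and Rn7s genes gave 0.23 (adjusted p = 0.0514 by limma). Atg4b fell by 0.23 in Col6a2-/- (limma adjusted p = 0.0249). This call was lost under 4 of 5 other scalings, and the difference over the 5 ran from -0.18 to -0.06 (limma adjusted p up to 0.433). It was also lost without any 1 of Col6a2-/- 5-week female 2, 5-week males 1 and 3 and 25-week females 2 and 3 (adjusted p = 0.051 to 0.0708).

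**Figure D4:**
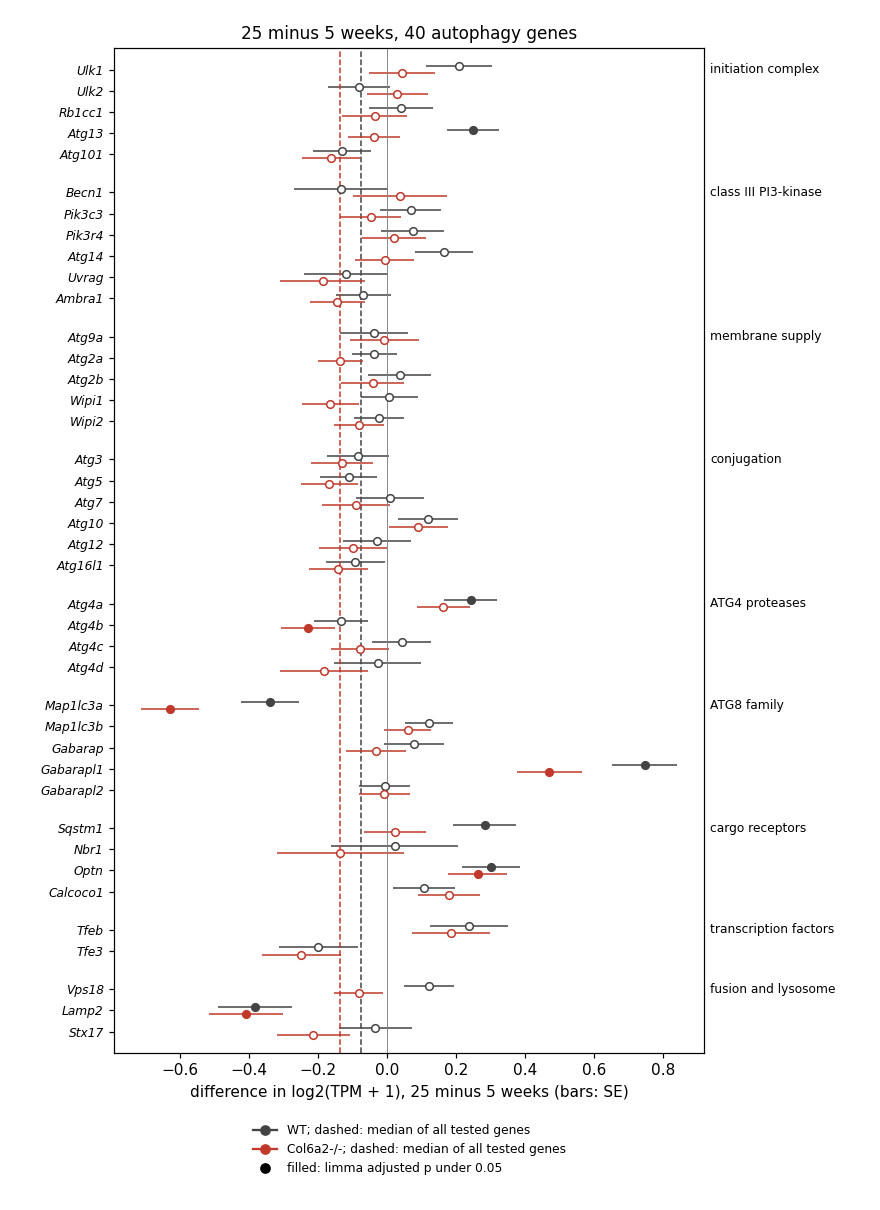
Difference in log2(TPM + 1) between 25 and 5 weeks for the 40 autophagy genes by role, in WT (grey) and Col6a2-/- (red), with SE bars; filled points had a limma adjusted p under 0.05 and dashed lines mark the median of all tested genes. Gabarapl1 lies furthest to the right and Map1lc3a and Lamp2 furthest to the left in both genotypes.

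Between the sexes, Atg4a, an X-linked protease gene, was the 1 member called, against 3.05% of all genes (1.87% higher and 1.18% lower in males). Its group means were 7.96 and 9.72 TPM in WT females and males at 5 weeks, 8.22 and 9.93 in Col6a2-/- at 5 weeks, 9.83 and 11.4 in WT at 25 weeks, and 9.78 and 10.8 in Col6a2-/- at 25 weeks. Males were higher in all 4 pairs of groups, and 14 of 16 male libraries lay above the mean of the matching females (0.21, SE 0.05, limma adjusted p = 0.0295). The call was lost without any 1 of 10 libraries (WT 5-week females 1 and 3, WT 5-week male 1, WT 25-week male 1, Col6a2-/- 5-week female 3, Col6a2-/- 5-week males 1 and 3, Col6a2-/- 25-week female 1, and Col6a2-/- 25-week males 1 and 3; limma adjusted p = 0.0504 to 0.0549), and 2 members (5.0%) were called without WT 25-week male 4 or without Col6a2-/- 5-week female 4 (3.15% and 3.02% of all genes).

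A further 42 autophagy genes outside the 40, such as upstream kinases, Rag GTPases and tethering proteins, were all tested. At 5 weeks 6 were higher and 1 lower in Col6a2-/-, 16.7% against the 25.4% of all genes. The largest rises were Tsc2 (0.34, limma adjusted p = 0.034), a brake on the kinase mTOR, Rragc (0.28, adjusted p = 0.0271), a GTPase that recruits mTOR to lysosomes, and Plekhm1 (0.27, adjusted p = 0.0119), a lysosome tether, and the fall was Prkaa2 (-0.32, adjusted p = 0.0231), the main catalytic AMPK subunit of muscle. With median-of-ratios size factors 1 was higher and 6 lower. In that fit fewer of all genes were called higher and more were called lower than on the TPM scale, as given above. Plekhm1 was lost with median-of-ratios size factors (0.18, limma adjusted p = 0.0506) and quantile normalization (0.10, adjusted p = 0.269). Tsc2 and Rragc were each lost under 3 of 5 other scalings (0.18 and 0.11 under quantile normalization, limma adjusted p = 0.136 and 0.176). The Tsc2 call was also lost without any 1 of WT females 1 and 3, WT males 3 and 4, Col6a2-/- female 2 and Col6a2-/- males 1 and 3 (limma adjusted p up to 0.102), that of Rragc without any 1 of WT female 1, WT male 2, Col6a2-/- female 2 and Col6a2-/- male 1 (up to 0.0876), and that of Prkaa2 without any 1 of Col6a2-/- females 1 and 3 and male 2 (up to 0.0547). Fitting only the groups compared also lost Tsc2, Rragc and Prkaa2 (limma adjusted p = 0.0797 for Prkaa2). At 25 weeks Vamp8, a SNARE of autophagosome fusion, was the 1 gene of 42 called, 2.38% against 4.7% of all genes (0.30, SE 0.08, limma adjusted p = 0.02), and was lost under 4 of 5 other scalings (limma adjusted p up to 0.185) and without any 1 of WT male 3, Col6a2-/- female 1 and Col6a2-/- male 1 (up to 0.0641). In the age comparisons 5 were higher and 1 lower in WT (14.3% against 19.8% of all genes), and 4 higher and 5 lower in Col6a2-/- (21.4% against 34.2%).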

How the data were processed

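The 40 members and the other gene lists were chosen with earlier results of these data known. The authors deposited 1 table a library with TPM, FPKM and coverage (signal) per gene, per the file headers; the submitters' processing notes name FastQC, MultiQC, Trimmomatic, HISAT2, SAMtools, StringTie and GRCm38 (mm10). Annotation, strand setting and treatment of reads with several matches are not given in the sources used here. The labels describe snap-frozen cryosections, a TruSeq RNA kit and paired-end reads.

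The files hold no read counts, so the design's branch for normalised values was used. TPM rows were summed per gene ID. limma 3.58.1 (R 4.3.3; lmFit, eBayes with trend) was fitted to log2(TPM + 1) for the 12817 genes that reached 1 TPM in 4 or more of the 32 libraries, with 8 group means and 11 contrasts, and p-values were adjusted by Benjamini-Hochberg over all tested genes. Differences are on this scale, which understates the change of low genes. A gene was called at an adjusted p under 0.05. Coverage divided by FPKM, a relative measure of depth, ran from 6.78 to 13.7; read numbers are not known, so no counting interval was computed. No pair of libraries was identical. The fit was tested on simulated data.

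Values were given for members called for genotype or sex, the most abundant member of each role, and the 3 largest called rises and falls with age; of the other autophagy genes, the 3 largest called rises and falls. Alternatives were other scalings (FPKM, median-of-ratios, quantile, without mitochondrial and Rn7s genes, without the 100 most abundant genes), pseudocounts of 0.1 and 0.5, other filters, only the groups compared, library weights, a replicate block and leaving out each library. Leaving out Col6a2-/- 5-week females 2 and 4 together was chosen after seeing the data. Python 3.11.15, numpy 2.4.6, pandas 2.3.3, scipy 1.17.1 and matplotlib 3.10.9 were used.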

Additional observations from a re-analysis of the deposited data

Results flagged for a closer look

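In 5 of 120 groups of 4 libraries tested, over the 15 genes given with values, 1 library lay far from the other three; chance flags about 1 in 20 groups, or 6 of 120. Gabarapl1 had 15.5 TPM in Col6a2-/- 5-week female 2, against 11.5 to 11.8 in the others. Atg9a had 13.7 TPM in WT 25-week female 4, against 17.5 to 18.0. Atg12 had 8.50 TPM in WT 5-week female 2, against 6.92 to 7.13. Atg4a had 10.8 TPM in WT 25-week female 2, against 9.40 to 9.56. Tfeb had 11.2 TPM in WT 25-week male 4, against 8.13 to 8.61. The 5 values came from 5 different libraries.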

How the results depend on the processing

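No result changed sign as a called value under any alternative run. Percentages in brackets are the share of all tested genes called in the same fit. The members called for genotype at 5 weeks numbered 3 (15.1%) when only the groups compared were fitted. At 25 weeks they numbered 2 (9.32%) with median-of-ratios size factors, 2 (8.47%) without the 100 most abundant genes, 4 (6.62%) with quantile normalization, 0 (1.04%) with no filter, 3 (15.3%) with library weights and 2 (9.72%) without Col6a2-/- 5-week females 2 and 4. In 5-week females they numbered 0 without mitochondrial and Rn7s genes (6.59%), with no filter (4.3%), with only the groups compared (0.946%) and without those 2 females (11.5%), and 6 (22.5%) with library weights. In 5-week males they numbered 3 under the 4 scalings other than FPKM (7.39% to 10.7%) and 2 (9.34%) without those females. In 25-week males they numbered 1 without mitochondrial and Rn7s genes (1.69%), without the 100 most abundant genes (5.59%), with only the groups compared (5.32%) and without those females (8.91%), 2 (6.26%) with median-of-ratios size factors and 4 (19.0%) with library weights. With median-of-ratios, top-100-free and quantile scaling they numbered 13 (28.0%), 13 (27.1%) and 15 (27.0%) for age in WT, 10 (34.8%), 10 (33.8%) and 12 (35.5%) for age in Col6a2-/-, and 4 (6.43%), 3 (6.15%) and 4 (6.46%) for sex, which had 3 (3.85%) with FPKM and 6 (7.22%) with library weights. With quantile normalization the members' median was -0.0342 at 5 weeks and -0.0592 at 25 weeks. The median of all tested genes in that fit is not given here, so these values are not read as a fall against other genes. Leaving out 1 library at a time gave 4 to 12 members called at 5 weeks, 0 to 1 at 25 weeks, 0 to 0 for genotype by age and by sex, 0 to 9 in 5-week females, 1 to 1 in 5-week males, 0 to 0 in 25-week females, 0 to 1 in 25-week males, 5 to 7 for age in WT, 4 to 8 for age in Col6a2-/- and 0 to 2 for sex; the medians ran from 0.09 to 0.17 at 5 weeks and 0.04 to 0.07 at 25 weeks. The cause of these shifts was not tested. For the highest leave-one-out counts at 5 weeks, in 5-week females, in 25-week males, for age in Col6a2-/- and for sex, the share of all genes is given above. The leave-one-out counts alone are not read as results about the members. With the replicate number as a block, 6 members were called at 5 weeks, 1 at 25 weeks, 7 for age in WT and 5 in Col6a2-/-. These equal the counts of the main fit, where 25.4%, 4.7%, 19.8% and 34.2% of all genes were called. The share of all genes in the blocked fit is not given here. The labels tie same-numbered mice by nothing but the number. Deviations from group means correlated at 0.03 on average over 112 same-numbered pairs (-0.34 to 0.35) and at -0.01 over pairs with other numbers. Of 32 libraries, 14 correlated best with their own number, more than an even split over the 4 numbers would give. Whether same-numbered mice shared a batch was not tested. The depth of the libraries is not known, so the error of low genes such as Atg7 and Tfe3 could not be divided into counting error and spread between mice.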
